A study of Mus musculus with 16 samples.

Results

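Il7r, Il2rb, Il2ra, Il6st, Bcl2 and Cish encode receptor chains for interleukins 7, 15, 2 and 6, a survival factor and a feedback inhibitor of cytokine signalling. These 6 genes, chosen by name, were followed across all 3266 cells and 9428 genes of a lymph node single-cell RNA library. The cells were sorted CD8+CD44+ T cells from the tumor-draining lymph node of 16-week-old C57BL/6 mice with melanoma-associated vitiligo, collected 45 days after tumor surgery. Melanoma-associated vitiligo is an autoimmune loss of skin pigment that accompanies the response to a melanoma. All cells shared this strain, disease state, age and sort, and no group without disease was analysed here. 3 sets of cells were compared within the library. The 372 Itgae cells had a UMI of Itgae, which encodes the integrin chain CD103 of tissue-resident memory T cells, and none of Klra7. The 250 Klra7 cells had a UMI of Klra7, which encodes an inhibitory Ly49 receptor found on part of the memory CD8 pool, and none of Itgae. The remaining comparison cells were 2632 with neither UMI, and 12 cells with both are described separately. How many mice went into the library is not stated in the sources used.

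Interleukin 7 signals through the chain encoded by Il7r, and interleukin 15 through the chain encoded by Il2rb, each paired with the common gamma chain encoded by Il2rg. Both cytokines keep memory CD8 T cells alive by activating JAK1, JAK3 and the transcription factor STAT5, and Bcl2 is one of the survival genes that they maintain. Cish is a STAT5 target whose protein dampens interleukin 2 and 15 signalling, which makes its transcript a common readout of recent cytokine exposure. Il2ra encodes CD25, the chain that gives the interleukin 2 receptor its high affinity, and appears on recently activated cells and regulatory T cells. Il6st encodes gp130, the shared signalling chain of the interleukin 6 family.

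The library held 14556622 UMIs, with a median of 4423 per cell and a range of 461 to 12576. It was 1 library sequenced on 4 lanes, so differences have no replicate check and no test was run. All 95% intervals are exact, Poisson for levels, Clopper-Pearson for shares and conditional for ratios, and they cover counting error only. The sort genes were present, with a UMI of Cd3e in 95.3% of cells, of Cd8a in 83.0% and of Cd8b1 in 96.6%, whereas Cd44 had a UMI in 26.0%. Cd4 and Foxp3 are not among the 9428 genes of the library, each of which had a UMI in at least 14 cells. Their absence may reflect rare detection, which was not tested. Because the cells were sorted as 1 type, no cell type that should lack these genes was at hand to measure UMIs from free RNA. Of the 3266 cells, 12 shared a barcode with the skin receptor library.

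The genes lay in 3 ranges of abundance. Levels are UMIs summed over cells and scaled to a library of 1000000 UMIs (CPM), and since UMIs were not divided by transcript length, levels of different genes are not compared per length. Il7r had 7447 UMIs, a level of 512 CPM (500 to 523), and a UMI in 77.1% of cells. Il2rb had 4557 UMIs, a level of 313 CPM (304 to 322), and a UMI in 66.7% of cells. Bcl2 had 4086 UMIs, a level of 281 CPM (272 to 289), and a UMI in 59.4% of cells. These 3 genes were thus read in most of the cells. Il6st was read in 23.7% of cells, at 64.6 CPM (60.6 to 68.9). Cish and Il2ra were rare. Cish had 128 UMIs in 104 cells (3.18%, interval 2.61 to 3.85), at 8.79 CPM, and 86 of those cells held 1 UMI. Il2ra had 48 UMIs in 33 cells (1.01%, 0.697 to 1.42), at 3.30 CPM, and 27 of those cells held 1 UMI.

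Detection depended on depth, so each cell was also thinned to 1500 UMIs, which left 3090 cells. A UMI was then seen in 50.4% of cells for Il7r, 35.3% for Il2rb, 32.3% for Bcl2, 8.51% for Il6st, 1.39% for Cish and 0.388% for Il2ra. At that depth the variance over the mean of Cish was 1.31, at percentile 98.1 among 1240 genes of like level. It was 1.29 for Il7r, at percentile 92.4 among 66 genes of like level, and 1.17 for Bcl2, at percentile 94.7 among 151. Levels also moved with depth. From the shallowest to the deepest of 4 equal depth bins Cish stood at 31.3, 4.45, 3.49 and 8.10 CPM, Il2ra at 11.0, 1.59, 1.25 and 3.35 CPM, and Bcl2 at 219, 275, 299 and 289 CPM. Il2rb stood between 300 and 318 CPM in all 4 depth bins. The shallowest bin held 157 of the 372 Itgae cells, so the group differences were also measured within these bins.

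Cish was higher in Itgae cells than in cells with neither UMI. It had 59 UMIs in 43 of 372 Itgae cells, a level of 38.9 CPM (29.6 to 50.1), against 60 UMIs in 53 of 2632 cells with neither, a level of 5.15 CPM (3.93 to 6.62). The log2 ratio, computed after adding 1 CPM to each side, was 2.70, and the interval of the count ratio without that addition was 2.37 to 3.46. Itgae cells carried 46.1% of all Cish UMIs and 10.4% of all UMIs of the library. At a fixed 1500 UMIs, Cish was seen in 6.34% of Itgae cells (3.97 to 9.53) and in 0.839% of cells with neither (0.520 to 1.28). As background, 3.22% of the 8912 genes with at least 50 UMIs over both sides were at least 2-fold higher in Itgae cells and 0.539% at least 2-fold lower. These were 287 and 48 genes, and 164 and 119 after scaling by the median gene. The median gene had a log2 ratio of 0.21, and Cish lay at percentile 99.8. In Klra7 cells Cish stood at 4.62 CPM (1.70 to 10.1) with 6 UMIs, a log2 ratio to cells with neither of -0.13 (-1.66 to 1.05).

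Cish is a short gene on chromosome 9 (mm10, GENCODE M21, 107296026 to 107302784, plus strand). Its promoter is shown because STAT5 binds the palindrome TTCNNNGAA, and Cish stood apart in Itgae cells. The 300 bases below run from 250 before the RefSeq start to 50 from the start on (GRCm38.p6, chr9:107296409-107296708, plus strand), with matches in capitals.

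Cish promoter: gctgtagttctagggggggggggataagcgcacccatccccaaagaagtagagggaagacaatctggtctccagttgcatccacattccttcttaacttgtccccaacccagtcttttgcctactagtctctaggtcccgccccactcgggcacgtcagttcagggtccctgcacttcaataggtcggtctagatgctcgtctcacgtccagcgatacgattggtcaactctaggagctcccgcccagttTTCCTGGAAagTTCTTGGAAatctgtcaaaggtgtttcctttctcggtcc

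The window holds 2 matches, TTCCTGGAA beginning at base 251 of the window, the RefSeq start, and TTCTTGGAA beginning at base 262. The GENCODE span of Cish given above begins before this window and holds all of it, so the 2 annotations place the start differently. The motif is its own reverse complement, so both strands give the same matches, and these matches do not overlap. At least 1 match was found in 8.30% of 32851 RefSeq promoters of this length and at least 2 in 0.457%. Il7r had 1 match, TTCAGGGAA at base 109 of its window, and Bcl2, Il2ra and Il6st had 0. A promoter entry was found for 5 of the 6 genes, not for Il2rb. A match describes letters in a window, not a bound site.

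Bcl2 differed in the opposite direction. It stood at 157 CPM (138 to 178) in Itgae cells with 238 UMIs, at 355 CPM (323 to 389) in Klra7 cells with 461 UMIs, and at 288 CPM (279 to 298) in cells with neither, with 3364 UMIs. None of these 3 intervals overlap. The log2 ratio of Itgae cells to cells with neither was -0.88 (-1.08 to -0.69), at percentile 0.909 of the genes tested and short of 2-fold. That of Klra7 cells to cells with neither was 0.30 (0.16 to 0.44), at percentile 88.8, in a comparison in which 0.306% of 8811 genes were at least 2-fold higher and 2% at least 2-fold lower. At 1500 UMIs Bcl2 was seen in 16.9% of Itgae cells (13.0 to 21.4), 40.8% of Klra7 cells (34.6 to 47.3) and 33.5% of cells with neither (31.7 to 35.4). Both comparisons use the same cells with neither UMI. Set against each other directly, Itgae cells were lower than Klra7 cells for Bcl2 by a log2 ratio of -1.17 (-1.41 to -0.95), past 2-fold, as were 0.379% of 5534 genes.

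**Figure D1:**
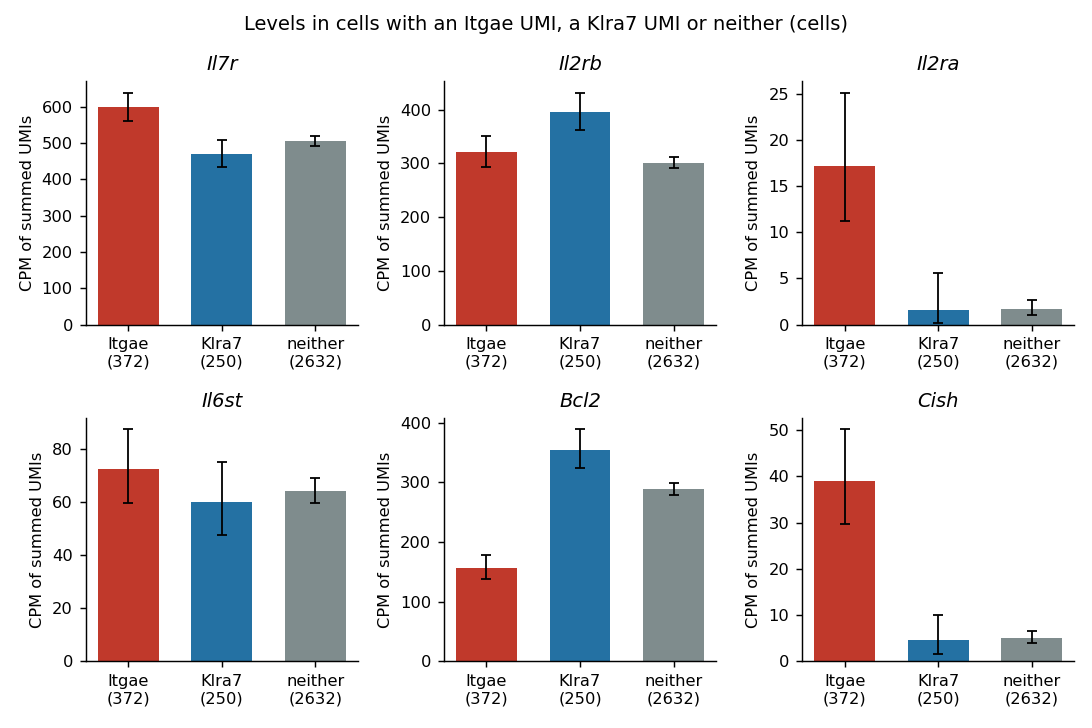
Levels of the 6 genes (CPM of summed UMIs, each panel with its own axis from 0) in 372 Itgae cells, 250 Klra7 cells and 2632 cells with neither UMI of 1 library. Bars are levels and error bars exact 95% Poisson intervals. Cish and Il2ra are highest in Itgae cells, Bcl2 is lowest there, and Il2rb is highest in Klra7 cells.

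Il2rb was the receptor chain that stood higher in Klra7 cells. It had 396 CPM (363 to 432) in Klra7 cells, 321 CPM (293 to 351) in Itgae cells and 301 CPM (291 to 311) in cells with neither. The log2 ratio of Klra7 cells to cells with neither was 0.39 (0.26 to 0.53), at percentile 93.0 of the genes tested. That of Itgae cells to cells with neither was 0.09 (-0.05 to 0.23), and it was -0.13 after scaling by the median gene, so no direction is given for it. Il7r had 598 CPM (560 to 638) in Itgae cells, 470 CPM (433 to 509) in Klra7 cells and 505 CPM (492 to 518) in cells with neither. Its log2 ratio in Itgae cells was 0.24 (0.14 to 0.34), close to that of the median gene, and it was 0.025 after scaling by the median gene. Il6st showed no difference beyond counting error, with 72.5 CPM (59.6 to 87.3) in Itgae cells, 60.1 CPM (47.5 to 75.0) in Klra7 cells and 64.2 CPM (59.7 to 69.0) in cells with neither.

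**Figure D2:**
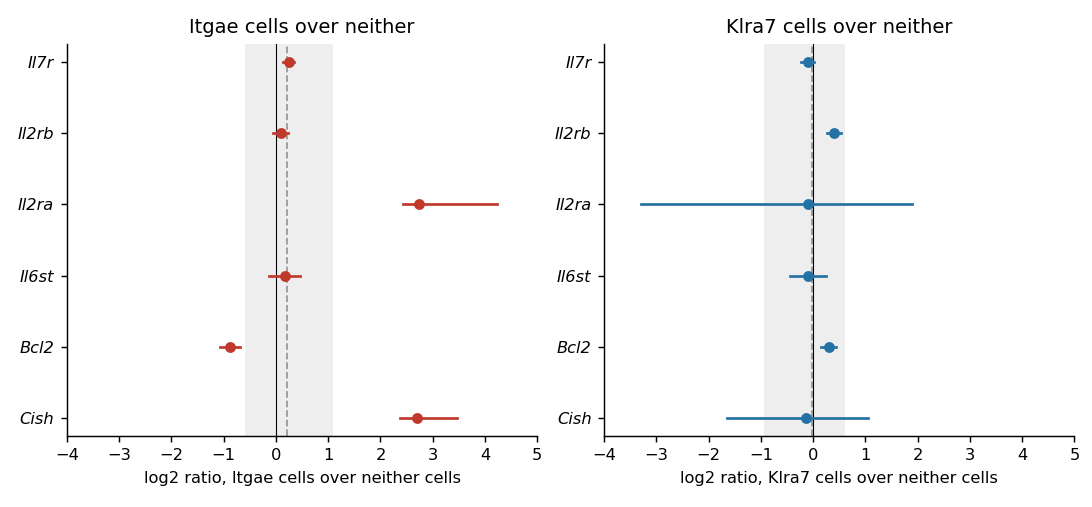
Log2 ratios of the 6 genes in Itgae cells over cells with neither UMI (left) and in Klra7 cells over the same cells (right). Points are log2 ratios with 1 CPM added, lines exact 95% intervals of the count ratio, the grey band the central 95% of the genes tested and the dashed line their median, which is 0.21 on the left and -0.03 on the right. Cish and Il2ra lie right of the band and Bcl2 left of it in the Itgae comparison, and no gene's point leaves the band in the Klra7 comparison.

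Levels were also read by the number of marker UMIs in a cell. Cells with 0, 1, 2 and at least 3 Itgae UMIs numbered 2632, 216, 89 and 67. Across them Cish stood at 5.15, 20.6, 52.6 and 77.3 CPM, and Bcl2 at 288, 177, 161 and 91.3 CPM. From 1 Itgae UMI on, neighbouring intervals overlap for both genes. They were 12.2 to 32.6, 31.7 to 82.1 and 48.4 to 117 CPM for Cish. For Bcl2 they were 150 to 207, 122 to 208 and 59.6 to 134 CPM. The intervals at 1 and at least 3 Itgae UMIs are apart for both genes. A Gzma or Gzmb UMI, which marks cytotoxic effector cells, was present in 3.69%, 8.33%, 21.3% and 37.3% of the cells with 0, 1, 2 and at least 3 Itgae UMIs. Granzyme detection thus moved with Itgae, and its part in the Cish and Bcl2 levels was not tested. Across cells with 0, 1, 2 and at least 3 Klra7 UMIs, Bcl2 stood at 288, 344, 351 and 406 CPM and Il7r at 505, 505, 407 and 377 CPM. The Bcl2 intervals at 1, 2 and at least 3 Klra7 UMIs (307 to 385, 273 to 444 and 324 to 504) overlap. Neighbouring Il7r intervals overlap as well. Il2rb was highest, at 524 CPM (428 to 636), in the 39 cells with 2 Klra7 UMIs, and its interval at 3 or more (289 to 460) overlaps that at 1 (336 to 417).

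**Figure D3:**
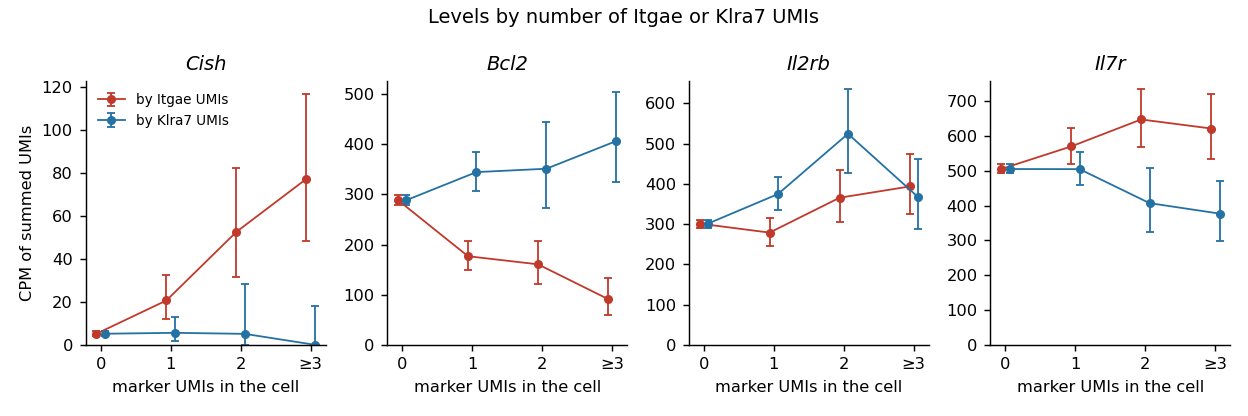
Levels of Cish, Bcl2, Il2rb and Il7r (CPM of summed UMIs) in cells with 0, 1, 2 or at least 3 UMIs of Itgae (red) or Klra7 (blue). Points are levels, error bars exact 95% Poisson intervals, and the cells at 0 are those with neither UMI. The points of Cish rise and those of Bcl2 fall along Itgae, with neighbouring intervals that overlap from 1 UMI on. Along Klra7 the points of Cish stay at or under 5.57 CPM.

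Itgae cells with and without a granzyme UMI were then taken apart. Cish had 99.1 CPM (64.1 to 146) in the 62 Itgae cells with a granzyme UMI and 26.9 CPM (18.6 to 37.5) in the 310 without, a log2 ratio of 1.85 (1.08 to 2.67). Between these sides 1.94% of 3824 genes were at least 2-fold higher and 2.59% at least 2-fold lower. Itgae cells without a granzyme UMI were still higher than cells with neither marker, by a log2 ratio of 2.18 (1.73 to 3.02) for Cish, and lower by -0.80 (-1.01 to -0.60) for Bcl2. In that comparison 3.09% of genes were at least 2-fold higher and 0.879% at least 2-fold lower. Bcl2 had 115 CPM (77.0 to 165) in Itgae cells with a granzyme UMI and 165 CPM (143 to 189) in those without, and these intervals overlap.

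Depth within the groups was held as well, by comparing cells inside each depth bin. From the shallowest to the deepest bin, the log2 ratio of Itgae cells to cells with neither was -1.23, -1.64, -0.48 and -0.63 for Bcl2, with each interval under 0. For Cish it was 2.25, 1.82, 1.06 and 3.01, resting on 29, 4, 2 and 24 UMIs in Itgae cells, and the interval includes 0 in the second and the third bin. For Klra7 cells the ratio of Il2rb was 0.36, 0.52, 0.36 and 0.36, with the interval including 0 in the shallowest bin, and that of Bcl2 was 0.64, 0.52, 0.24 and 0.17, with the interval above 0 in the second bin only.

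Il2ra was concentrated in a small set of Itgae cells. It had 26 UMIs in 13 Itgae cells (17.1 CPM, 11.2 to 25.1), 2 UMIs in 1 Klra7 cell (1.54 CPM) and 20 UMIs in 19 cells with neither (1.72 CPM, 1.05 to 2.65). The log2 ratio of Itgae cells to cells with neither was 2.74 (2.42 to 4.24), and with 46 UMIs over both sides Il2ra was below the 50 required of the genes tested. Of the 26 UMIs, 22 lay in the 52 Itgae cells that also had a UMI of Ikzf2, which encodes Helios, a factor of regulatory T cells and of some unconventional CD8 cells. In those 52 cells Il2ra was seen in 9 (17.3%, 8.23 to 30.3), and Cish stood at 53.0 CPM and Bcl2 at 93.7 CPM. In the 320 Itgae cells without an Ikzf2 UMI, Il2ra was seen in 4 (1.25%, 0.342 to 3.17), Cish stood at 36.1 CPM and Bcl2 at 169 CPM. Of 83 cells with neither marker but with an Ikzf2 UMI, 1 had an Il2ra UMI (1.20%, 0.0305 to 6.53), against 18 of 2549 without an Ikzf2 UMI (0.706%, 0.419 to 1.11), so no difference could be read there. The highest Il2ra counts were 6 UMIs in each of 2 cells, and both had UMIs of Itgae and Ikzf2 and a T cell receptor contig. These splits by Ikzf2 were made after the values were seen.

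Markers of other T cells moved with the Itgae group. The 3 measured genes of the CD4 and regulatory T list (Ikzf2, Cd40lg and Zbtb7b) summed to 107 CPM in Itgae cells, 27.0 CPM in Klra7 cells and 16.6 CPM in cells with neither, and all 3 were higher in Itgae cells. The 2 measured gamma delta T genes (Trgv2 and Cd163l1) summed to 75.8, 37.0 and 28.3 CPM in the same order, with Trgv2 the 1 that was higher in Itgae cells. Without any cell that had a UMI of these 5 genes, 232 Itgae cells were left against 2321 with neither. The log2 ratio then was 2.18 (1.59 to 3.23) for Cish, -0.70 (-0.94 to -0.47) for Bcl2 and 0.29 for Il2ra, the last from 2 and 17 UMIs. B cell markers summed to 311 CPM in Itgae cells and 223 CPM in cells with neither, and myeloid markers to 109 and 93.6 CPM. Leaving out cells with a UMI of those markers took away most cells, and 122 Itgae cells and 810 with neither remained. Cish then had a log2 ratio of 2.07, from 18 and 34 UMIs, and Bcl2 of -0.87, from 53 and 821 UMIs. The effector list, which includes Gzma and Gzmb, summed to 419 CPM in Itgae cells and 87.5 CPM in cells with neither. It stood at 2161 CPM in Itgae cells with a granzyme UMI. In those without, where Gzma and Gzmb are 0 by definition, it stood at 71.9 CPM. The anergic list summed to 271 and 62.5 CPM in Itgae cells and cells with neither, the interferon list to 300 and 257 CPM and the NK list to 1218 and 1242 CPM. The stem-like list, which includes Il7r, summed to 1812 and 1755 CPM, with an interval of the log2 ratio (-0.01 to 0.10) that includes 0. Il7r alone gave 598 and 505 CPM of these sums. The sort genes were higher in Itgae cells (5963 and 4618 CPM) and the Ly49 virtual memory list, which includes Il2rb, was lower (1829 and 2731 CPM). The resident memory list without Itgae summed to 986 CPM in Itgae cells and 575 CPM in cells with neither. In Klra7 cells the Ly49 list summed to 3252 CPM, with 9 of its 9 measured genes other than Klra7 higher than in cells with neither, and the anergic list to 18.5 CPM. The part of the anergic, interferon and sort genes in the member values was not tested.

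In clusters made without the 6 genes, Cish was highest in the 2 clusters where Bcl2 was lowest. Itgae, Klra7 and Gzma were not left out when the clusters were made, so their place among leading genes is no independent result. Of 8 clusters, cluster 6 was led by Lgals3, S100a4, Gzma, Itga1 and Itgae, and cluster 7 by Izumo1r, Ctla4, Nrn1, Wnt10a and Ptms. Lag3, Ikzf2 and Cd74 were also among the 10 leading genes of cluster 7. Izumo1r, Ctla4, Nrn1 and Lag3 are genes of chronically stimulated or anergic T cells. Ikzf2 stood at 92.2 CPM in cluster 7 and 7.53 CPM in the rest. Clusters 6 and 7 held 17.9% of cells and 14.8% of UMIs, but 68.8% of Cish UMIs, 45.8% of Il2ra UMIs and 6.05% of Bcl2 UMIs. They were also the shallowest, with medians of 2692 and 3184 UMIs, against 3908.5 to 5190 in the other clusters. The part of depth in the cluster levels was not tested. Cish stood at 79.0 CPM (58.2 to 105) in cluster 6 and at 26.0 CPM (18.6 to 35.4) in cluster 7, and between 1.35 and 6.05 CPM in the other 6 clusters. Bcl2 stood at 143 CPM (115 to 177) in cluster 6 and at 104 CPM (88.4 to 121) in cluster 7, and between 232 and 362 CPM in the others. The receptor chains parted these clusters. Il7r was highest in cluster 6, at 866 CPM (793 to 943), and stood at 464 CPM (430 to 499) in cluster 7. Il6st was highest in cluster 7, at 110 CPM (93.8 to 128), and stood at 44.4 CPM (29.3 to 64.6) in cluster 6. Il2rb had 362 CPM (316 to 413) in cluster 6, 254 CPM (229 to 280) in cluster 7 and 380 CPM (358 to 402) in cluster 0, which was led by Klra7, Klra6 and Klre1 and held 125 of the 250 Klra7 cells. Il2ra had 14.8 CPM in cluster 6, 10.1 CPM in cluster 1, led by the interferon-induced Isg15 and Ifit1, and 8.44 CPM in cluster 7. The 10 UMIs in cluster 1 came from 4 cells, with 6 in 1 cell and 2 in another. Of the 9 UMIs in cluster 6, 6 came from 1 cell, and no neighbouring clusters in its order had intervals apart. Elsewhere in the orders, neighbouring intervals were apart between clusters 6 and 5 and clusters 5 and 3 for Il7r, clusters 1 and 3 for Il2rb, clusters 7 and 5 for Il6st, clusters 1 and 6 for Bcl2, and clusters 6 and 7 and clusters 7 and 1 for Cish.

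**Figure D4:**
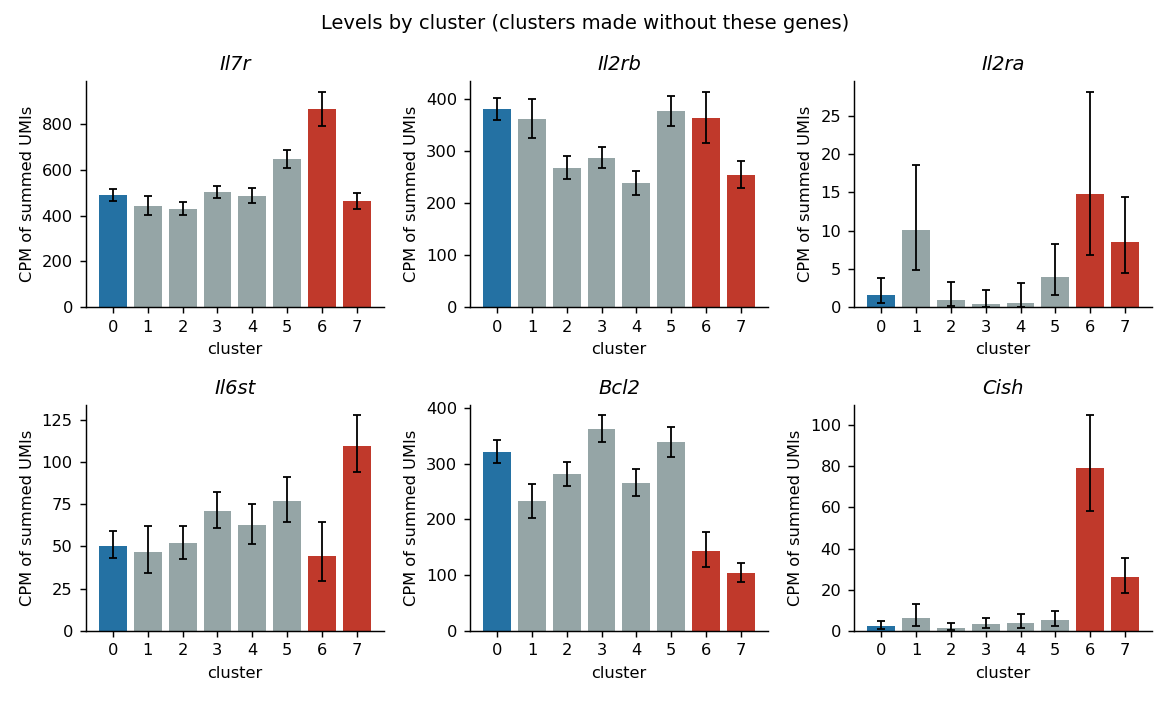
Levels of the 6 genes (CPM of summed UMIs, each panel from 0) in 8 clusters made without them. Bars are levels and error bars exact 95% Poisson intervals, with clusters 6 and 7, rich in Itgae cells, in red and cluster 0, rich in Klra7 cells, in blue. Cish is highest and Bcl2 lowest in clusters 6 and 7, whereas Il7r is highest in cluster 6 and Il6st in cluster 7.

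Clusters 6 and 7 together held 254 of the 372 Itgae cells. In the other clusters, 118 Itgae cells had Bcl2 at 265 CPM against 306 CPM in 2307 cells with neither, a log2 ratio of -0.21 (-0.45 to 0.03). Cish there had a log2 ratio of 0.66 (-1.52 to 2.52), from 3 and 31 UMIs, so a difference of Cish was not detectable at this depth outside those clusters. The interval of Bcl2, from 151 and 3217 UMIs, includes 0 and does not reach the -0.88 found over all clusters. Outside these clusters 177 genes were at least 2-fold higher and 259 at least 2-fold lower, against 287 and 48 over all clusters. Inside clusters 6 and 7, 254 Itgae cells against 325 with neither had a log2 ratio of 1.20 (0.56 to 1.93) for Cish, -0.47 (-0.88 to -0.08) for Bcl2 and 0.38 (0.15 to 0.62) for Il2rb. Within cluster 6 alone Bcl2 stood at 112 CPM in 112 Itgae cells and 211 CPM in 49 cells with neither. Its log2 ratio was -0.91 (-1.57 to -0.26) there and -0.55 (-1.11 to -0.02) in cluster 7, with 142 and 276 cells. The Cish ratio was 0.55 (-0.45 to 1.68) in cluster 6 and 0.90 (-0.07 to 1.95) in cluster 7, and both intervals include 0. For Il2rb the ratio was 0.04 (-0.39 to 0.49) in cluster 6 and 0.35 (0.05 to 0.65) in cluster 7. The part of the cluster mix in the pooled ratios was not tested. Clusters 6 and 7 held 2 of the 250 Klra7 cells, so leaving them out bears little on the Klra7 values. Within cluster 0, Klra7 cells differed from cells with neither by 0.29 (0.08 to 0.50) for Bcl2, 0.21 (0.01 to 0.41) for Il2rb and -0.28 (-0.48 to -0.09) for Il7r. Clusters 2, 3 and 5 held fewer Klra7 cells, 42, 31 and 28. There the ratio was 0.04, 0.04 and 0.31 for Bcl2, 0.30, 0.27 and 0.04 for Il2rb, and -0.04, -0.01 and 0.14 for Il7r. All of these intervals include 0.

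Across single cells the 6 genes were only weakly tied to each other. Correlations are Pearson r of residuals from a count model with depth, over the 3266 cells of 1 library, and are given as descriptions. Over 15 pairs, the largest r was 0.14 for Il2ra and Cish, followed by 0.08 for Il2rb and Bcl2 and -0.07 for Bcl2 and Cish, and Il7r and Cish had 0.05. The absolute r of all pairs of the 6379 genes read in at least 5% of cells had a median of 0.01 and a 99th percentile of 0.06. Cish and Il2ra, read in fewer cells, are not among those genes, so this range is no like background for their pairs. At 1500 UMIs, 2 cells had UMIs of both Il2ra and Cish where independence gives 0.167, and 6 had both Bcl2 and Cish where it gives 13.9. Il2rb and Bcl2 shared 380 cells against 353, and their r was 0.019 after thinning. Il7r and Il2rb, the receptor chains of the paired survival cytokines, had an r of 0.02 and shared 568 cells against 550. In sparse counts such weak values are no finding.

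The genes most like each member were found by the same r among the 6379 genes read in at least 5% of cells. For Cish they were Capg (0.28), S100a4 (0.25), S100a6 (0.25), Itgae (0.23) and Socs1 (0.21), the last another inhibitor of cytokine signalling. For Il2ra they were Ifit3 (0.16), Tgfbr1 (0.15), Vim (0.14), Clic4 (0.14) and Ctla4 (0.14). For Il7r they were Ahnak (0.18), S100a6 (0.17), Malat1 (0.16), the interleukin 18 receptor gene Il18r1 (0.16) and Itgb1 (0.16). For Il2rb they were Ccl5 (0.16), Gzmm (0.15), Nkg7 (0.14), Ly6c2 (0.13) and Klre1 (0.12), genes of cytotoxic and memory lymphocytes. For Bcl2 they were Pde2a (0.12), Txk (0.10), Gramd3 (0.10), Myc (0.10) and Ly6c2 (0.10), and the lowest was Capg (-0.16), the gene most like Cish. For Il6st they were Malat1 (0.12), 4932438A13Rik (0.10), Ptprc (0.10), Ptms (0.10) and Ephx1 (0.09).

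Cells with a Cish UMI were also set against the rest. In the 104 Cish cells Bcl2 stood at 178 CPM, against 284 CPM in the rest, a log2 ratio of -0.67 (-1.0 to -0.37). Il2rb stood at 403 CPM in Cish cells and 310 CPM in the rest (0.38, 0.17 to 0.59), and Il7r at 558 and 510 CPM (0.13, -0.05 to 0.31). Of 9037 genes other than Cish, 4.15% were at least 2-fold higher in Cish cells and 4.37% at least 2-fold lower. Itgae had a UMI in 43.3% of Cish cells and 10.7% of the rest, and Gzmb stood at 221 CPM in Cish cells and 11.5 CPM in the rest. The CD4 and regulatory T list summed to 97.2 CPM in Cish cells and 24.8 CPM in the rest, the gamma delta list to 88.9 and 32.0 CPM, and the resident memory list to 1289 and 649 CPM. The part of these markers in the Bcl2 and Il2rb values was not tested. Of the 33 Il2ra cells, 8 also had a Cish UMI, and 30 had a receptor contig.

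Clones came from a separate receptor library. Cells were put in 1 clone when the CDR3 nucleotide sequences of their TRB chain and of their TRA chain with the most UMIs were the same. A second TRA chain was not compared. Lymph node cells were split by whether their clone was also found in the skin receptor library. Shared-clone cells made up 8.61% (5.18 to 13.3) of the 209 Itgae cells with a clone, 0 of 171 Klra7 cells (up to 2.13%) and 0.571% (0.274 to 1.05) of 1750 cells with neither. The 28 shared-clone cells came from 26 clones, and in none of them did the same barcode carry the clone in skin. They were shallower, with a median of 2281 UMIs against 4556 in the 2107 LN-only cells. Itgae had a UMI in 18 of the 28 shared-clone cells (64.3%) and in 9.30% of LN-only cells, so most of the shared-clone cells were Itgae cells. With so few cells 22.8% of 8398 genes were at least 2-fold higher in shared-clone cells and 23.5% at least 2-fold lower.

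Bcl2 had 1 UMI in the 28 shared-clone cells (14.8 CPM), against 2733 UMIs in LN-only cells (285 CPM), a count ratio with a log2 interval of -9.57 to -1.79. At 1500 UMIs it was seen in 0 of 22 shared-clone cells, which allows a share of up to 15.4%, and in 32.6% of LN-only cells. With clones defined by TRB alone, 49 shared-clone cells held 11 Bcl2 UMIs and the log2 ratio was -1.77. Cish was spread over clones: its 10 UMIs came from 8 cells of 8 clones, and at 1500 UMIs it was seen in 18.2% (5.19 to 40.3) of shared-clone cells and 0.873% of LN-only cells. With only contigs of at least 3 UMIs, 12 shared-clone cells held 1 Cish UMI. Il7r was seen at 1500 UMIs in 81.8% (59.7 to 94.8) of shared-clone cells and 47.9% of LN-only cells. Il2rb stood at 385 CPM in shared-clone cells and 311 CPM in LN-only cells, a log2 ratio of 0.31 (-0.31 to 0.86). Il2ra had 0 UMIs in shared-clone cells, where 3 UMIs would be 44.4 CPM, above its level in LN-only cells (3.23 CPM), so no difference could be read. Il6st also had 0 UMIs in shared-clone cells, against 615 UMIs in LN-only cells (64.1 CPM). With the floor of 3 UMIs it was 1.44-fold lower, and the exact interval of the log2 ratio reached up to -0.23. With clones defined by TRB alone, shared-clone cells held 5 Il6st UMIs and the log2 ratio was -0.77. Within Itgae cells, a split made after the values were seen, 18 shared-clone cells held 1 Bcl2 UMI (20.9 CPM), against 131 UMIs in 191 LN-only cells (162 CPM), a count ratio with a log2 interval of -8.27 to -0.45. Cish there had 8 UMIs in shared-clone cells (167 CPM) and 16 in LN-only cells (19.8 CPM), a log2 ratio of 3.02 (1.65 to 4.39). Il6st had 0 and 60 UMIs, with an interval that reaches up to 0.10 and so includes 0. The share of all genes past 2-fold was not counted for this split, so these ratios have no background.

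**Figure D5:**
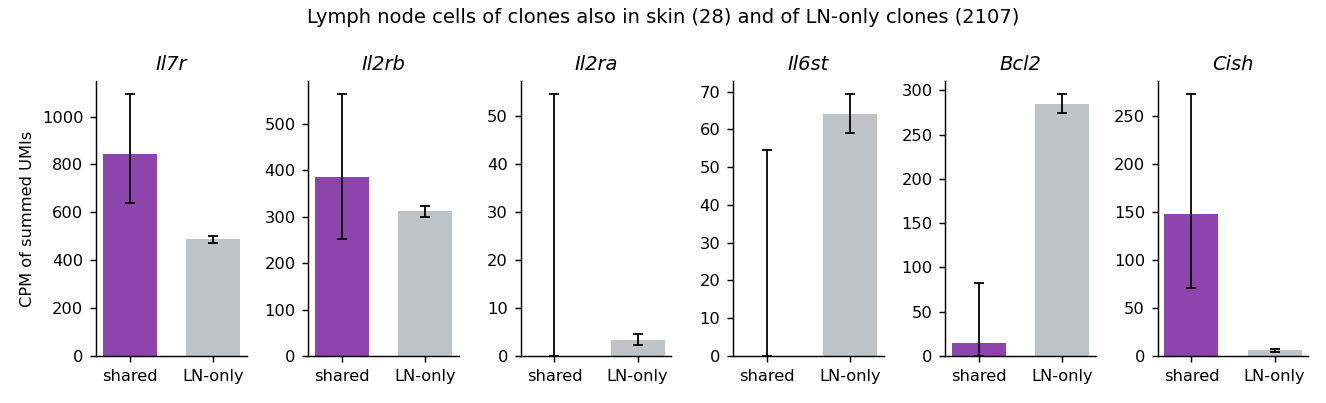
Levels of the 6 genes (CPM of summed UMIs, each panel from 0) in 28 lymph node cells whose clone was also seen in skin (shared) and 2107 cells of LN-only clones. Bars are levels and error bars exact 95% Poisson intervals. Bcl2 is lower and Cish and Il7r are higher in shared-clone cells, and Il2ra and Il6st have 0 UMIs there.

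Clone size within the lymph node went with smaller differences. The 108 cells of clones with at least 2 lymph node cells had a median of 2581 UMIs, against 4599 in 2027 cells of clones seen in 1 cell. Il2rb stood at 393 CPM in expanded and 309 CPM in single clones, a log2 ratio of 0.34 (0.07 to 0.61). Bcl2 stood at 228 CPM in expanded and 285 CPM in single clones (-0.32, -0.69 to 0.03). Neither was past 2-fold, as were 4.67% of genes upward and 6.39% downward. Il7r (530 and 489 CPM) and Il6st (77.2 and 63.2 CPM) had intervals of the ratio that include 0 on the log2 scale. Cish had 4 UMIs in expanded clones and Il2ra had 0.

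The rest of the pathway was read from gene lists. Over all genes tested, 3.22% were at least 2-fold higher and 0.539% lower in Itgae cells, and 0.306% and 2% in Klra7 cells. A count of 0 in a short list is therefore no finding. Of the common gamma receptor genes other than Il2ra, 6 were tested and 0 were past 2-fold in Itgae cells, with a median log2 ratio of 0.17 against 0.21 over all genes. Il2rg, the common gamma chain itself, had 0.26 (0.16 to 0.35), Il15ra, which presents interleukin 15, 0.50 (-0.25 to 1.26), Il21r 0.07 and Il4ra -0.28 (-0.61 to 0.02). In Klra7 cells these stood at -0.02 for Il2rg, 0.39 for Il15ra, 0.00 for Il21r and -0.02 for Il4ra. In the SOCS family, the feedback inhibitors to which Cish belongs, 1 of 7 genes tested was at least 2-fold higher in Itgae cells and that was Cish. Socs1 had 0.35 (0.10 to 0.60), Socs3, the inhibitor that binds gp130, -0.51 (-1.20 to 0.07), Socs4 0.11, Socs5 -0.44, Socs6 -0.19 and Socs7 -0.45, and the list median was -0.19. In Klra7 cells Socs1 had -0.23, Socs3 -0.18, Socs4 0.06, Socs5 0.37, Socs6 0.12 and Socs7 0.18.

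Of 11 JAK and STAT genes, 9 were higher in Itgae cells, as were 6548 of the 8912 genes tested, and 0 were past 2-fold. The list median was 0.52, against 0.21 over all genes. Stat2, which carries interferon signals, had 0.74 (0.22 to 1.30), Stat5a 0.52 and Stat5b 0.42, and the lowest were Stat4 (-0.36) and Jak1 (-0.03). In Klra7 cells the highest were Tyk2 (0.65) and Stat5a (0.24), and Stat2 had -0.57 (-1.60 to 0.22). Of 9 other STAT5 target genes, 2 were at least 2-fold higher in Itgae cells, Gzmb (3.95, 3.75 to 4.55) and Lta (1.21), and 0 were lower, with Myc at -0.35 and Prf1 at -0.17. The list median of 0.20 was that of all genes to within 0.01. Of 4 genes tested of the gp130 and interleukin 12 receptor family, 0 were past 2-fold, and Il12rb1 had 0.68 and Il27ra -0.13 in Itgae cells. Il6ra, the partner of Il6st, had 0.22 in Itgae cells and -0.59 (-0.99 to -0.23) in Klra7 cells. Of 10 other cytokine receptors, Tgfbr1 (1.19, 0.77 to 1.70) was past 2-fold and Il18r1 had 0.82 (0.61 to 1.04), with Ifngr1 and Il10rb lowest at -0.34 each. In Klra7 cells Tgfbr1 had 0.47, Gzmb 0.53 and Lta -0.58, with intervals that include 0.

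In the BCL2 family, Bcl2 was the lowest of the 5 anti-apoptotic genes tested in Itgae cells. Mcl1, another survival protein needed by T cells, had 0.52 (0.29 to 0.76), and Bcl2l1, which encodes BCL-XL, had 0.00 (-0.68 to 0.61). Bcl2a1b (0.84) and Bcl2a1d (1.64) were higher, but they are near-identical copies that share reads, so their split is uncertain. Of 7 pro-apoptotic genes 0 were past 2-fold. Bbc3, which encodes PUMA, was lowest at -0.75 (-1.12 to -0.43), Bid had -0.17, and Bad (0.47) and Bcl2l11 (0.43), which encodes BIM, were highest. In Klra7 cells Bcl2l11 had 0.55 (0.14 to 0.98), Bcl2l1 0.32 (-0.32 to 0.93) and Mcl1 -0.06 (-0.37 to 0.24). Of 12 regulators of Il7r and Il2rb, Id2 was at least 2-fold higher in Itgae cells (2.24, 2.10 to 2.41) and Eomes, which drives Il2rb, at least 2-fold lower (-1.02, -1.43 to -0.68), with Runx1 at 0.93 and Klf2 at -0.29. In Klra7 cells Eomes had 0.33 (0.07 to 0.59) and Id2 -0.57 (-0.96 to -0.21). In Klra7 cells 0 genes tested of any of these lists were past 2-fold. Below the 50 UMIs required, Il12rb2 had 1.19 (0.16 to 2.72) from 8 UMIs in Klra7 cells and 25 in cells with neither, and Bcl2a1d -1.30 (-7.46 to 0.44) from 1 and 39. The list medians lay between -0.33 and 0.13, against -0.03 over all genes.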

How the data were processed

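Single-cell RNA was measured in CD8+CD44+ lymph node T cells. The deposited gene table holds UMI counts for each gene in each cell, and the deposited receptor tables hold counts of UMIs per assembled contig, with lanes pooled by the authors. Bowtie, RSEM and mm10 are named in the submitters' processing notes, without a role or version. The members and lists were chosen with earlier results of these data known. UMIs were summed per set of cells, and ratios carried a prior of 1 CPM. Genes were counted past 2-fold (log2 of 1) among those with at least 50 UMIs over both sides. Intervals are 95%, and a count of 0 was given a floor of 3 counts. Residuals used theta 100. Clusters (scanpy 1.11.5, igraph 0.11.9, resolution 1.0) left out the 6 genes and the pathway lists, but not Itgae or Klra7. No doublet caller was run, and barcodes with at least 2 TRB sequences were left out in an alternative. Contigs were productive, full-length and of high confidence, and clones had 1 TRB and 1 or 2 TRA sequences. Ratios were tested on simulated data, with 1 Poisson count drawn per gene for each summed group. The simulation had no single cells and no variance beyond counting, so it does not cover spread between cells. A planted log2 ratio of 2 came out at a median of 1.91 for Itgae cells and 1.96 for Klra7 cells, and 0.909% and 1.43% of unchanged genes passed 2-fold. Over 4 planted sizes the 95% intervals held the planted ratio in 88% to 94% of genes for Itgae cells and 92% to 100% for Klra7 cells. Named genes were the 6 members, the 5 most correlated with each, the 2 highest and 2 lowest of each list, and all common gamma and SOCS genes, except 1 gene that is not reported here. Gene names matched GENCODE M21 for 9361 of 9428. Skin RNA was not analysed here.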

Additional observations from a re-analysis of the deposited data

How the results depend on the processing

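The log2 ratio of Bcl2 in Itgae cells ran from -1.35 to -0.21 and that of Cish from 0.66 to 3.39 over the alternatives run, and the ends at -0.21 (-0.45 to 0.03) and 0.66 (-1.52 to 2.52), without clusters 6 and 7, have intervals that include 0, and in Klra7 cells Il2rb (0.20 to 0.56) and Bcl2 (0.22 to 0.42) had point values above 0. In the Itgae comparison, a prior of 10 CPM gave Il2ra 1.21 and Cish 1.69. Groups and levels both thinned gave Il2rb 0.27 and Bcl2 -1.35, and at least 2 marker UMIs gave 0.33 and -1.14. The mean of single-cell CPM gave Il7r 0.45 and Bcl2 -1.09. Median-of-ratios scaling, a shift of 0.22, gave Il7r 0.025, Il2rb -0.13 and Bcl2 -1.09, and put 164 genes at least 2-fold higher and 119 lower, in place of 287 and 48. Without granzyme cells Il2ra was 2.34 and Cish 2.30. Without cells with B cell or myeloid markers Il7r was 0.59, Il2rb -0.13, Il2ra 2.17 and Cish 2.07. Chosen after seeing the data, leaving out CD4, regulatory and gamma delta marker cells gave Il2ra 0.29 and Cish 2.18, leaving out clusters 6 and 7 gave Il7r 0.11, Il6st -0.20, Bcl2 -0.21 and Cish 0.66, and leaving out the shallowest of 4 depth bins gave Il7r 0.12. In the Klra7 comparison, thinned groups gave Il7r -0.29 and Cish -2.99 (0 UMIs, no bound), at least 2 UMIs gave Il7r -0.37 and Il2rb 0.56, and cells without B cell or myeloid markers gave Il7r -0.37, Il2rb 0.20 and Cish -3.65 (0 UMIs, no bound). Without clusters 6 and 7 the split in Itgae cells turned, with 177 genes at least 2-fold higher and 259 lower. The mean of single-cell CPM put 582 higher and 100 lower in Itgae cells, and 52 higher and 257 lower in Klra7 cells. Genes past 2-fold in Itgae cells numbered 335, and 96 with a prior of 10 CPM, 785 with thinned groups, 802 at 2 UMIs and 78 with at least 200 UMIs. In Klra7 cells they numbered 203, and in the same order 8, 1048, 875 and 16, with 385 after thinning alone and 433 without B cell or myeloid markers. Levels over all cells were 534 (thinned) and 554 CPM (mean of cells) for Il7r, 71.6 CPM (mean) for Il6st, and 10.6 and 11.6 CPM for Cish. The r of Il2rb and Bcl2 was 0.019 after thinning. Shared-clone ratios were -1.77 for Bcl2 by TRB alone and 2.23 for Cish with contigs of at least 3 UMIs. Expanded-clone ratios were -0.60 for Il6st after thinning and -2.77 (0 UMIs, no bound) for Cish with such contigs. At resolution 0.5 the log2 of the highest over the lowest cluster was 0.49 for Il7r, 0.43 for Il2rb and 3.70 for Cish, against 1.01, 0.67 and 5.09. The cause of these shifts was not tested. No paired analysis was possible because the lanes of the 1 lymph node library are pooled, so no replicate could be left out either. Depth limits Il2ra and Cish most, since 48 and 128 UMIs carry every statement on them.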

Other observations

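The 12 cells with UMIs of both Itgae and Klra7 had a median of 5762 UMIs, and 4 of them (33.3%) carried at least 2 TRB sequences, against 12.9% of Itgae cells, 11.2% of Klra7 cells and 8.93% of cells with neither. Il2rb had a UMI in 12 of the 12, at 561 CPM (410 to 751), and Bcl2 stood at 287 CPM (182 to 431), with 3 Cish UMIs and 0 of Il2ra.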
